A study of Mus musculus with 15 samples.

Results

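Nfya, Nfyb, Nfyc, Yap1, Tead4, Dppa2, Dppa4 and Ctcf are 8 genes whose products have been put forward as regulators of zygotic genome activation, the first burst of transcription from the embryo's own genome. They were chosen by name, and all 8 of the 8 were listed among the 14392 genes of the RNA-seq table. NF-Y is a trimer in which NFYB and NFYC pair through histone-fold domains and NFYA reads the CCAAT box of promoters. YAP1 is the coactivator held back by the Hippo kinase cascade, and it reaches DNA through TEAD proteins such as TEAD4, which is known for its role in forming the trophectoderm. DPPA2 and DPPA4 are SAP-domain proteins that work together and are known in embryonic stem cells as activators of Dux and of genes of the 2-cell stage. CTCF is the zinc-finger insulator protein that, with cohesin, sets the borders of chromatin loops. In mm9, the NF-Y genes lie apart, Nfya at chr17:48526210-48549231, Nfyb at chr10:82211446-82226889 and Nfyc at chr4:120430043-120504177, all on the minus strand. Yap1 (chr9:7931999-8004596) and Tead4 (chr6:128174306-128250841) are also on the minus strand, and Ctcf (chr8:108160468-108206822) is on the plus strand. All 8 are annotated as protein-coding.

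The study removed Usp16, a deubiquitinase that acts on histone H2A, from mouse oocytes, and asked what the embryos lacked at genome activation. WT embryos carried Usp16+/+. The cKO embryos had Usp16 fl/fl;Gdf9-Cre mothers, in which Cre is active in oocytes from the primordial follicle on, and WT fathers, so that the maternal allele was deleted and the paternal allele was intact. All mice were on a C57BL/6 background, and females were superovulated before mating. Zygotes and 2-cell embryos of both genotypes were profiled with 2 libraries a group, 8 in all, each from 10 pooled embryos. The labels do not say whether the libraries of a group came from separate females, so p-values measure the spread between these samples, which may be technical. Values are FPKM, fragments per length of transcript and per mapped fragments, with every value under 1 set to 1, and the read depth is unknown. Exact permutation of 2 against 2 libraries cannot give p under 0.333, so tests were made with limma across all genes on log2(FPKM + 1), a scale that understates the change of low genes.

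Usp16 itself was read at 184 and 187 FPKM in the WT zygotes and at 16.8 and 21.99 FPKM in the cKO zygotes. In 2-cell embryos it stood at 168 and 183 FPKM in WT and at 168 and 84.8 FPKM in cKO. The zygote libraries thus went with their labels, while 1 cKO 2-cell library was close to WT. In cKO embryos Usp16 rose 6.50-fold in mean FPKM from zygote to 2-cell (log2 2.57, SE 0.34; limma adjusted p = 0.0012). The paper states, citing RNA-seq data, that the intact paternal allele is expressed again at that stage. By immunofluorescence it found no detectable USP16 protein in such embryos at the 4-cell stage. FPKM do not tell the parental alleles apart, so the source of this rise was not tested. The FPKM of the second cKO 2-cell library summed to 770989, against 547752 to 593317 in the other 7 libraries. Genes of mean FPKM of at least 5 differed between the replicates by a median of 0.62 on the log2 scale in cKO 2-cell embryos, against 0.19 to 0.28 in the other groups. All 10 oocyte and embryo markers were above the floor in every library. Of 13 cumulus markers 4 were listed, summing to 25.3 to 29.7 FPKM in zygotes and 4.32 to 13.3 FPKM in 2-cell embryos. Cyp19a1, at 22.3 to 26.7 FPKM, made most of the zygote sums, and the other 3 were at the floor in every zygote library. The 5 of 7 sperm markers listed summed to 18.9 to 25.9 and 5.00 to 12.8 FPKM. Prm2, at 13.5 to 20.1 FPKM, made most of the zygote sums, and at 5.00 all 5 were at the floor. The part of these markers in the stage changes was not tested.

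**Figure D1:**
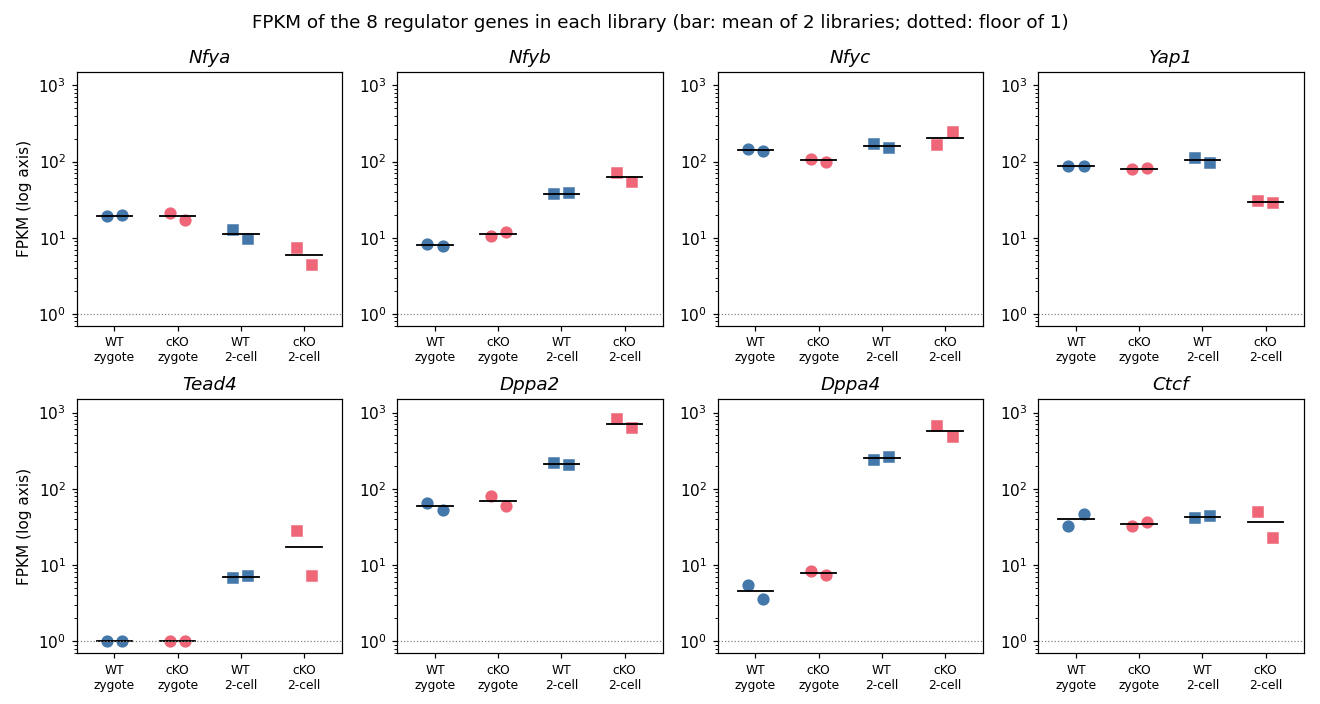
FPKM (log axis) of each of the 8 genes in the 8 libraries, blue for WT and red for cKO, circles for zygotes and squares for 2-cell embryos, with a bar at the mean of 2 libraries and a dotted line at the floor of 1. In cKO 2-cell embryos Yap1 sat at 28.4 and 30.2 FPKM, under all other libraries, and Dppa2 at 618 and 817 FPKM, above all others.

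From zygote to 2-cell embryo in WT, 4 of the 8 genes rose and 0 fell in limma with Benjamini-Hochberg adjustment at 0.05: Nfyb, Tead4, Dppa2 and Dppa4. Over all genes of the table, 34.2% were called higher and 15.5% lower in that comparison. The same 4 passed 3-fold in means, with 26% of all genes higher and 8.78% lower by that rule. In 6 genes both 2-cell libraries lay above both zygote libraries and in 1 below, where 49.4% and 26.4% of all genes did so. The median change of the 8 genes was 1.05 on the log2 scale, against 0.27 for all genes. In cKO embryos, 5 rose and 2 fell over the same interval, where all genes had 24.6% higher and 27.1% lower, and medians were 1.64 and 0. The libraries of these 5 and 2 genes did not overlap between stages, as in 32.3% and 35.5% of all genes. At that stage, cKO against WT 2-cell embryos called 3 genes higher (Nfyb, Dppa2 and Dppa4) and 1 lower (Yap1), against 6.16% and 24.6% of all genes. Limma shared 1 spread over the 4 groups, while cKO 2-cell replicates differed more than the others, so the 2-cell genotype p-values may be too small. In the fit on the 4 2-cell libraries alone, limma called 0 of all genes. Of the 4 genes called with all 8 libraries, Nfyb and Dppa4 were not called without either WT 2-cell library. Such fits left 1 library in that group. By means alone, 1 gene passed 3-fold upward (Dppa2) and 1 downward (Yap1), against 2.84% and 13.5% of all genes. Only Yap1 did without the first cKO 2-cell library. Without the second, Tead4 passed as well, and with median-ratio scaling 3 genes passed upward (Tead4, Dppa2 and Dppa4) and 0 downward, Yap1 no longer passing. The 2-cell genotypes did not overlap in 3 genes that were higher in cKO and in 2 that were lower, where all genes had 14% and 43.4%. The 8 genes had a median of 0.51 there and all genes a median of -0.30. Stage and genotype comparisons share libraries, so their values stand side by side and are not independent. Levels are shares of a pool of RNA, and fewer cells of a type and less RNA per cell cannot be told apart.

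The zygote comparison of cKO with WT asked whether the maternal supply of these transcripts differed, and it called 0 of the 8 genes in limma (0.0208% of all genes, 3 genes, were called). By unadjusted p under 0.05 it picked 1 gene, Dppa4, against 2.83% of all genes, and 0 passed 3-fold in means, as 0.104% of all genes did upward and 0.0486% downward. The zygote libraries did not overlap in 4 genes, Nfyb and Dppa4 higher in cKO and Nfyc and Yap1 lower, where all genes had 15.8% higher and 10.2% lower. Usp16 itself did not pass there, with a limma adjusted p of 0.19 after Benjamini-Hochberg adjustment, although its zygote means differed 9.58-fold. The means of the 8 genes differed between genotypes by at most 1.75-fold in zygotes, for Dppa4.

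The NF-Y subunits went different ways. Nfya, which encodes the DNA-reading subunit, was at 19.4 and 19.6 FPKM in WT zygotes, 21.3 and 17.2 FPKM in cKO zygotes, 12.6 and 9.49 FPKM in WT 2-cell embryos and 7.41 and 4.44 FPKM in cKO 2-cell embryos. Zygotes of both genotypes overlapped, and each cKO 2-cell library lay under each WT 2-cell library. Nfya fell in cKO embryos by 1.57 on the log2 scale from zygote to 2-cell (SE 0.29; limma adjusted p = 0.0044), and its WT difference of -0.78 did not pass (limma adjusted p = 0.065). The WT difference ran from -1.46 to -0.59 over 18 alternatives, of which 7 called it, median-ratio scaling among them. The 2-cell difference between genotypes of -0.82 did not pass either (limma adjusted p = 0.077). It was -0.40 with median-ratio scaling and -0.21 with quantile normalization, where the libraries of the genotypes overlapped.

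Nfyb, a histone-fold subunit, was low in zygotes, at 8.34 and 7.89 FPKM in WT and 10.7 and 11.9 FPKM in cKO. In 2-cell embryos it was at 37.7 and 38.1 FPKM in WT and at 70.5 and 54.3 FPKM in cKO. No library of one stage reached the level of the other. Nfyb rose 4.67-fold in mean FPKM in WT (log2 2.09, SE 0.20; limma adjusted p = 0.00044) and stayed called under all 18 alternatives. The genotype difference at 2-cell was 1.65-fold in mean FPKM (log2 0.69, SE 0.20; limma adjusted p = 0.045), and 13 of 18 alternatives did not call it, among them leaving out either WT 2-cell library (limma adjusted p = 0.095 and 0.092) and each zygote library (0.078 to 0.084).

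Nfyc, the other histone-fold subunit, was the highest of the 3 subunits in FPKM in every library. It read 144 and 138 FPKM in WT zygotes, 109 and 99.4 FPKM in cKO zygotes, 170 and 149 FPKM in WT 2-cell embryos and 166 and 240 FPKM in cKO 2-cell embryos. It rose from zygote to 2-cell in cKO (log2 0.93, SE 0.23; limma adjusted p = 0.015), a call lost without the first or the second cKO zygote library (0.060 and 0.087). In WT its stage difference was 0.17 and turned to -0.16 with median-ratio scaling, with no call in either. The genotypes overlapped at 2-cell. Without the first cKO 2-cell library the 2-cell difference was 0.59.

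Ratios of 2 genes within a library do not change when a library is scaled by 1 factor, as in median-ratio or sum scaling, but do change with quantile normalization. They were added after the levels had been seen, and are given with no test. The FPKM of Nfya over Nfyb was 2.32 and 2.49 in WT zygotes and 1.99 and 1.44 in cKO zygotes. At the 2-cell stage the ratio was 0.334 and 0.249 in WT and 0.105 and 0.0818 in cKO. Nfya thus exceeded Nfyb in all 4 zygote libraries and was under it in all 4 2-cell libraries, with cKO the lower genotype at both stages. The FPKM of Nfyc over Nfya was 5.14 to 7.43 in zygotes, 13.5 and 15.7 in WT 2-cell embryos and 22.4 and 54.1 in cKO 2-cell embryos.

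**Figure D2:**
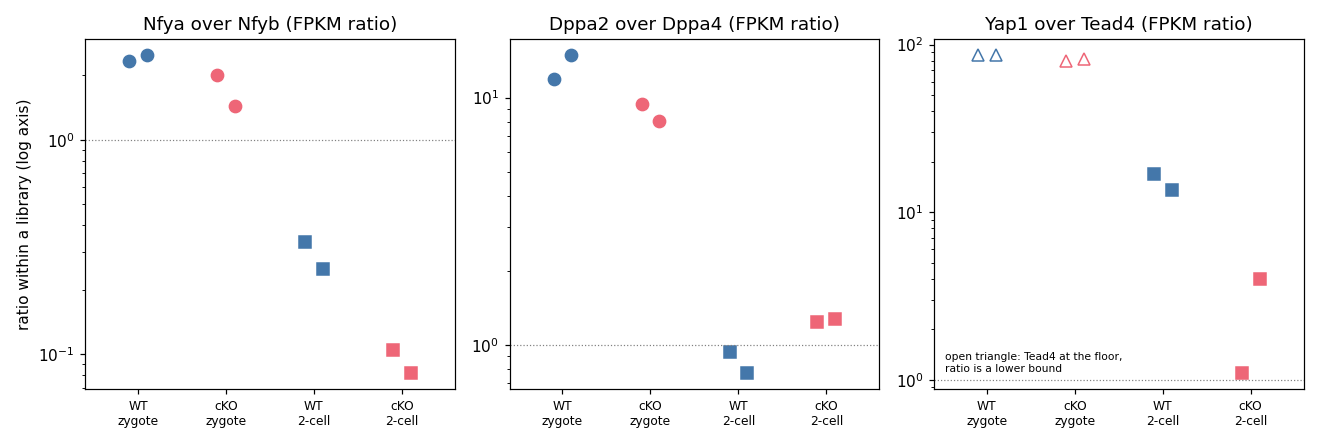
Ratio of FPKM within each library (log axis) for Nfya over Nfyb, Dppa2 over Dppa4 and Yap1 over Tead4, blue for WT and red for cKO; open triangles are lower bounds, since Tead4 was at the floor. Nfya over Nfyb goes from 1.44 to 2.49 in zygotes to 0.0818 to 0.334 in 2-cell embryos.

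Yap1 was the 1 gene of the 8 that limma called lower in cKO than in WT 2-cell embryos. It was at 86.3 and 86.8 FPKM in WT zygotes, 79.7 and 81.8 FPKM in cKO zygotes and 113 and 96.3 FPKM in WT 2-cell embryos, but at 30.2 and 28.4 FPKM in cKO 2-cell embryos. The cKO 2-cell libraries lay under all 6 others and differed by only 0.084 on the log2 scale, where the group's genes differed by a median of 0.62. Yap1 fell in cKO embryos from zygote to 2-cell by 1.43 on the log2 scale (SE 0.17; limma adjusted p = 0.00077), while the WT difference was 0.26 (limma adjusted p = 0.24), turning to -0.068 with median-ratio scaling. In 2-cell embryos mean FPKM was 3.57-fold lower in cKO (log2 -1.80, SE 0.17; limma adjusted p = 0.0019), and the value ran from -2.04 to -1.33 over 18 alternatives, called in 17. The exception, the fit on the 4 libraries alone, gave limma adjusted p = 0.060. The difference of the stage changes between genotypes passed limma too (-1.70, SE 0.24; adjusted p = 0.015), and it was lost without any one of the 4 zygote libraries (0.073 to 0.089). Such an interaction was called for 2 of the 8 genes, Yap1 and Dppa2, against 11.8% of all genes (1.58% higher and 10.2% lower), and for 0 of them by limma when any one zygote library was left out, where 1 or 2 of all genes were called. Without either WT 2-cell library, the interaction of Dppa2 was not called.

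Tead4, the DNA-binding partner, was at the floor of 1 in all 4 zygote libraries. In 2-cell embryos it was at 6.66 and 7.10 FPKM in WT and at 27.6 and 7.09 FPKM in cKO. The first cKO library stood apart, and the second lay between the WT libraries. Tead4 rose from zygote to 2-cell in WT (log2 1.98, SE 0.55; limma adjusted p = 0.025) and in cKO (2.93; limma adjusted p = 0.0049). Since zygotes were at the floor, no fold is given, and 9 of 18 alternatives did not call the WT change, including leaving out either WT zygote library (both limma adjusted p = 0.11), either cKO zygote library (both 0.060) and either WT 2-cell library (0.13 and 0.14). The genotype difference of 0.95 at 2-cell did not pass (limma adjusted p = 0.25). It was 1.86 without the second cKO library and 0.039 without the first, each fit leaving 1 library in that group. Yap1 exceeded Tead4 16.9-fold and 13.6-fold in the WT 2-cell libraries, and 1.09-fold and 4.00-fold in the cKO ones, so that these ratios did not overlap.

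The promoter windows of Yap1 and of the histone-fold subunits are shown because NF-Y and TEAD proteins read short motifs that can be looked for there. RefSeq held windows for 5 of the 8 genes, 9 in all, each 300 bases from 250 before to 50 after a start; Tead4, Dppa2 and Dppa4 had none. The windows come from the GRCm38.p6 table, and each had 1 exact match in mm9, which gives the positions. Capitals mark CCAAT or its reverse complement ATTGG, or GGAATG or its reverse complement CATTCC, overlapping matches counted singly. The sequences are written 5′ to 3′ on the gene's strand, which is the minus strand for all 3. Yap1 lies at chr9:8004547-8004846, Nfyb at chr10:82226837-82227136 and the second Nfyc start at chr4:120497765-120498064.
Yap1: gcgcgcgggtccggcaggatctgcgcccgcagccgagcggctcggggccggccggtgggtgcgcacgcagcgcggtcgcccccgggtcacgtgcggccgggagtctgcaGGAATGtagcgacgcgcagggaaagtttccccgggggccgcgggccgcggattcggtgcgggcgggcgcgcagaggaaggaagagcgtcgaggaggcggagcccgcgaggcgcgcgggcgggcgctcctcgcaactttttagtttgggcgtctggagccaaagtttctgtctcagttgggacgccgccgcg
Nfyb: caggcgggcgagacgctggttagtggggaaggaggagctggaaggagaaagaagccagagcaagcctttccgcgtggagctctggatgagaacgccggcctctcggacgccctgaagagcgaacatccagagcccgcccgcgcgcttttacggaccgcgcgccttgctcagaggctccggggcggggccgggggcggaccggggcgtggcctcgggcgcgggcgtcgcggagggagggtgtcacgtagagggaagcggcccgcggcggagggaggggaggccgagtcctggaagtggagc
Nfyc: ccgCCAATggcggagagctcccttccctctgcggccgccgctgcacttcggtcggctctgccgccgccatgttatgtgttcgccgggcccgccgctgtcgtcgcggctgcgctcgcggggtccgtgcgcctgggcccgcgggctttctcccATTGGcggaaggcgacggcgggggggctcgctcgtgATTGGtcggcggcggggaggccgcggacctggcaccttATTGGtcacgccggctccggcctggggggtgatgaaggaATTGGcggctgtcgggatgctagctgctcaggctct
The Yap1 window held 1 TEAD motif, 141 bases before the start, and no CCAAT box. Nfyb held neither. The Nfyc window held 5 CCAAT boxes, and the other 2 Nfyc windows held 0 and 3. The printed Nfyc window is thus the one with the most, and its start lay 6363 bases downstream of the GENCODE gene start. The Nfya windows held 0, 0 and 1 CCAAT box, and the Ctcf window held neither motif. Of 32851 windows of that length, 37.4% held at least 1 CCAAT box, 0.271% held 5 or more, and 14.7% held the TEAD motif. A match is a description of the letters and not of binding.

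Dppa2 and Dppa4 lie next to each other on chromosome 16 of mm9, Dppa4 at chr16:48283848-48294405 and Dppa2 at chr16:48310590-48319836, on the plus strand with 16.2 kb between them. Dppa2 was at 64.9 and 52.9 FPKM in WT zygotes, 79.6 and 59.6 FPKM in cKO zygotes, 221 and 203 FPKM in WT 2-cell embryos and 817 and 618 FPKM in cKO 2-cell embryos. The zygote genotypes overlapped, and both cKO 2-cell libraries lay above every other library. Dppa2 rose 3.59-fold in mean FPKM from zygote to 2-cell in WT (log2 1.83, SE 0.25; limma adjusted p = 0.0015) and 10.3-fold in cKO (log2 3.35; limma adjusted p = 0.00016). It was 3.39-fold higher in cKO than in WT 2-cell embryos (log2 1.74, SE 0.25; limma adjusted p = 0.0051), from 1.39 to 2.22 over 18 alternatives, of which 16 called it. The exceptions were library weights and the fit without the zygote libraries. Most other alternatives kept a spread shared with the zygotes. The stage changes differed between genotypes by 1.51 (SE 0.35; limma adjusted p = 0.044), which 10 of 17 alternatives did not call, among them leaving out any zygote library (0.11 to 0.15) or either WT 2-cell library (0.082 and 0.096).

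Dppa4 was at 5.48 and 3.55 FPKM in WT zygotes and at 8.42 and 7.38 FPKM in cKO zygotes. In 2-cell embryos it was at 236 and 264 FPKM in WT and at 657 and 483 FPKM in cKO. Among the 7 genes above the floor in zygotes it had the widest stage change in both genotypes, 55.3-fold in mean FPKM in WT (log2 5.53, SE 0.26; limma adjusted p = 8.7e-05) and 72.2-fold in cKO (log2 5.99; limma adjusted p = 6.0e-05). The genotypes did not overlap at either stage. Dppa4 was 2.28-fold higher in cKO than in WT 2-cell embryos (log2 1.17, SE 0.26; limma adjusted p = 0.018), and 6 of 18 alternatives did not call it, among them leaving out either WT 2-cell library (0.090 and 0.068). The zygote difference of 0.71 had an unadjusted limma p of 0.031 and an adjusted p of 1.

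The FPKM of Dppa2 over Dppa4 went from 11.9 and 14.9 in WT zygotes and 9.45 and 8.08 in cKO zygotes to 0.936 and 0.770 in WT 2-cell embryos and 1.24 and 1.28 in cKO 2-cell embryos. Dppa2 thus led in zygotes, Dppa4 led in WT 2-cell embryos, and Dppa2 led again in cKO 2-cell embryos. Dppa2 over Yap1 was 0.609 to 0.998 in the zygotes, 1.96 and 2.11 in WT 2-cell embryos and 27.1 and 21.8 in cKO 2-cell embryos, with no overlap between the 2-cell groups.

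Ctcf had no call in any of the 5 comparisons. It was at 32.4 and 47.0 FPKM in WT zygotes, 32.5 and 36.1 FPKM in cKO zygotes, 41.2 and 43.8 FPKM in WT 2-cell embryos and 50.1 and 22.7 FPKM in cKO 2-cell embryos. The cKO 2-cell libraries lay on either side of all the others. The genotype difference at 2-cell was -0.32 (SE 0.39; limma adjusted p = 0.56), and it turned to 0.14 with median-ratio scaling and to 0.23 without the second cKO library. Without the first it was -0.88.

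**Figure D3:**
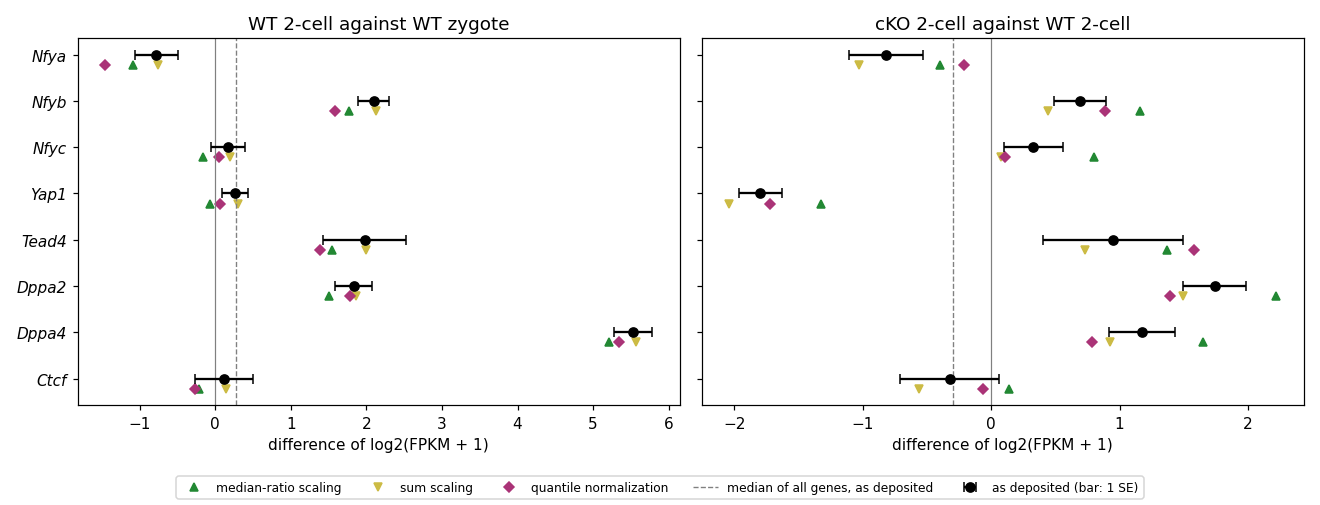
Difference of log2(FPKM + 1) for each gene, with 1 SE, in WT 2-cell embryos against WT zygotes (left) and in cKO against WT 2-cell embryos (right), with coloured marks for 3 other scalings and a dashed line at the median of all genes. Yap1 stays under 0 and Dppa2, Dppa4 and Nfyb above 0 under every scaling in the right panel, while Ctcf crosses 0.

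Scaling moved the background against which the genotype differences are read. The median of all genes between cKO and WT 2-cell embryos was -0.30 as deposited, 0 with median-ratio scaling, -0.43 with sum scaling and 0.0099 with quantile normalization. Yap1 stayed called as lower and Dppa2 as higher under all 3 other scalings, and Dppa4 did so only with median-ratio scaling.

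Genes whose FPKM ran most like that of a member over the 8 libraries were found among 7872 genes of mean FPKM of at least 5. The measure was Pearson's r on 8 points that share 2 stages, given as a description. For Yap1 they were Gng12 and Cntn6 (both r = 0.996), for Dppa2 Snupn (0.998) and Paics (0.996), for Dppa4 1110002N22Rik and Pank3 (both 0.998) and for Nfyb Cbfb and Pank3 (both 0.997). Gng12, a G protein gamma subunit, was at 71.4 to 76.1 FPKM in WT and 8.25 to 8.53 FPKM in cKO 2-cell embryos. For Nfya they were 1700028K03Rik and Trim26 (both 0.993), for Tead4 Pmm2 and Kbtbd2 (both 0.996), for Nfyc Atp5c1 (0.969) and Traip (0.963) and for Ctcf Arhgap21 (0.976) and Pwwp2a (0.953).

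Lists of genes that act with these regulators were read at the 2-cell stage for comparison. Of 20 listed Hippo pathway and TEAD partner genes, 1 was called higher and 3 lower in limma (median -0.21, all genes -0.30). For this and the lists that follow, 6.16% of all genes were called higher and 24.6% lower at 2-cell. Limd1, a LIM protein of the pathway, read 14.5 and 13.0 FPKM in WT and 5.73 and 1.89 FPKM in cKO, Vgll4, a TEAD cofactor, read 2.15 and 4.16 FPKM against the floor, and Stk4, the Hippo kinase MST1, read 4.55 and 5.47 against 11.2 and 10.4 FPKM. Tead2, of the same family as Tead4, was also called lower (log2 -0.94), at 7.04 and 5.56 FPKM in WT and 2.28 and 3.34 FPKM in cKO. Wwtr1, the YAP1 paralogue TAZ, was at 7.23 and 10.5 FPKM in WT and 11.02 and 9.73 FPKM in cKO. Of 7 reported YAP1 and TEAD targets in the table, 1 was higher and 2 lower: Tgfb2 was at 112 and 98.1 FPKM in WT and 18.2 and 16.5 FPKM in cKO, Gata3 at 3.16 and 4.05 against 1 and 1.83 FPKM, and Rpl13, a ribosomal protein gene, at 419 and 377 against 1069 and 740.5 FPKM.

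A list of 16 genes set beside NF-Y joined CCAAT-site factors and histone-fold relatives with other DNA-binding factors such as Usf2 and Hsf1. Of these 16, 1 was called higher (Chrac1, log2 1.84) and 4 lower, led by Usf2 (-1.91) and Hsf1 (-1.29). Of 22 CTCF partners and cohesin genes, 1 was higher, the cohesin subunit Stag2 (1.07), and 2 lower, Smc1b (-1.57) and Maz (-1.06). Rad21 and Smc3, cohesin core subunits, had differences of 0.55 and 1.17 that did not pass (limma adjusted p = 0.33 and 0.19). The list medians, -0.28 and -0.12, lay at or above that of all genes, -0.30.

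A further list joined other Dppa family genes (Dppa1, Dppa3 and Dppa5a) with 2-cell genes linked to DPPA2 and DPPA4. Of its 13 genes in the table, 10 were called higher and 2 lower (Dppa1 and Dppa3) from zygote to 2-cell in WT. Over all genes 34.2% and 15.5% were. At 2-cell 1 was higher and 6 lower in cKO than in WT, where 6.16% and 24.6% of all genes were, with a median of -1.32 against -0.30 for all genes. Zscan4f was at 17.9 and 29.1 FPKM in WT and 1.07 and 5.66 FPKM in cKO 2-cell embryos, Zscan4c at 9.60 and 19.0 FPKM against 2.37 and 1.92 FPKM, and Zscan4d at 42.4 and 52.5 FPKM against 6.35 and 20.9 FPKM. Most of the 6 lower genes were Zscan4 copies, each counted as 1 gene. The Zscan4 copies are near-identical, so how reads were split among them is uncertain. Dppa3, also called Stella, was the gene that was higher, at 2958 and 2472 FPKM in WT and 5888 and 8774 FPKM in cKO. Dux was at or within 1 FPKM of the floor in all 8 libraries.

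**Figure D4:**
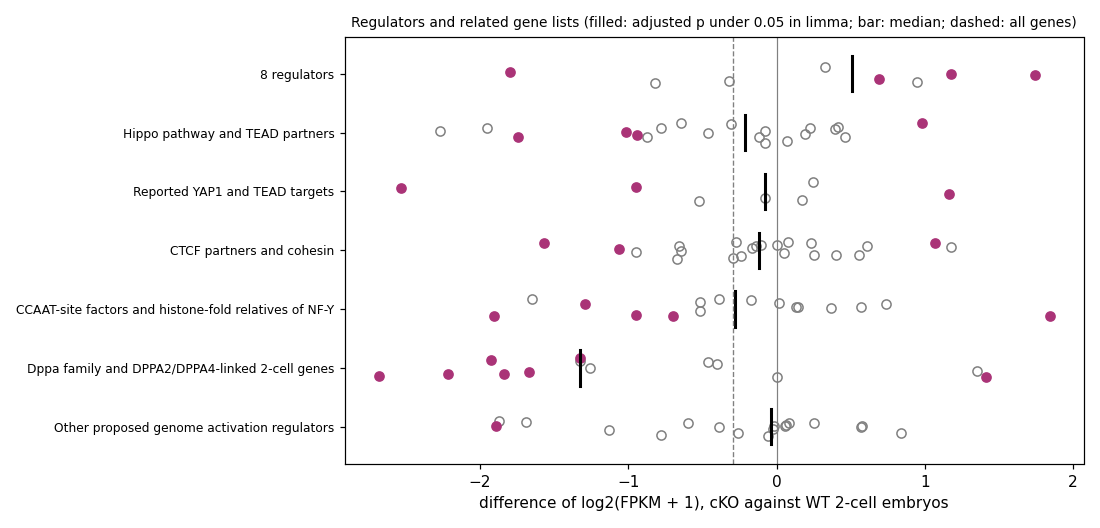
Difference of log2(FPKM + 1) between cKO and WT 2-cell embryos for the 8 genes and 6 related lists, 1 point a gene, filled where limma's adjusted p was under 0.05, with a bar at each list's median and a dashed line at the median of all genes. The list of Dppa family genes and genes linked to DPPA2 and DPPA4 has its median at -1.32, and the 8 genes at 0.51.

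Of 18 other proposed regulators of genome activation, 0 were called higher and 1 lower at 2-cell, the pluripotency factor Pou5f1 (log2 -1.89), which was at 77.4 and 40.8 FPKM in WT and 11.5 and 18.02 FPKM in cKO. From zygote to 2-cell in WT, 8 of them rose and 1 fell, where 34.2% and 15.5% of all genes did.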

How the data were processed

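RNA-seq libraries (Smart-seq2) of zygotes and 2-cell embryos were analysed as deposited. The authors aligned reads trimmed to 50 bases to mm9 with TopHat2 2.1.1, computed FPKM with Cufflinks 2.2.1, set values under 1 to 1 and dropped genes under 1 in every sample. The deposited FPKM carry no counts, so the depth, and a floor or interval that needs it, is unknown. The floor hides differences between low genes. All 8 columns mapped to a sample. The 7 ChIP-seq samples were not analysed here.

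A means model of 4 groups was fitted in limma 3.58.1 (R 4.3.3) with a mean-variance trend to log2(FPKM + 1) of all 14392 genes. It left 4 residual degrees of freedom, and p-values were adjusted over all genes by Benjamini-Hochberg. A gene was called at adjusted p under 0.05. The fit was also run on simulated data, and the outcome is not given here. Descriptions used Python 3.11.15, numpy 2.4.6 and pandas 2.3.3. Alternatives were the pseudocount (0 or 5), a mean FPKM of at least 5, scaling by median ratio or sum, quantile normalization, library weights, the 4 libraries compared, a replicate block and each library left out. A block with crossed numbers and the ratios of FPKM within libraries were added after the data had been seen.

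The members and lists were chosen with earlier results of these data known. Named beside the members were Usp16, the 2 genes most like each member in Pearson's r over the libraries, up to 3 called genes of each list by size of the 2-cell genotype change, and a few close relatives. Positions are 1-based mm9 coordinates from GENCODE, and promoter windows came from RefSeq.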

Additional observations from a re-analysis of the deposited data

Results flagged for a closer look

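For 2 of the 8 genes the change from zygote to 2-cell embryo differed between genotypes in a test of the difference itself, the interaction of genotype and stage in limma, which called 11.8% of all genes (1.58% higher and 10.2% lower). Both calls were lost when any one zygote library was left out, and then 1 or 2 of all genes were called. For Yap1 the change was lower in cKO than in WT by an interaction of -1.70 on the log2 scale (SE 0.24; limma adjusted p = 0.015), with both cKO 2-cell libraries under both cKO zygote libraries and both WT 2-cell libraries above both WT zygote libraries as deposited, an order of WT means that turned with median-ratio scaling. For Dppa2 the rise was larger in cKO, with an interaction of 1.51 (SE 0.35; limma adjusted p = 0.044), and the 2-cell libraries were above the zygote libraries in both genotypes. The other 6 genes did not pass this test, which does not show that their stage changes were equal. Groups of 2 libraries were too small to test any single library as far from the others.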

How the results depend on the processing

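The counts of members called kept within 1.5 times their value under every alternative for both stage comparisons and the zygote comparison. The members behind a count could change. With a pseudocount of 5 or median-ratio scaling, the WT stage count of 4 was 3 higher and 1 lower, with Nfya called lower and Tead4 not called. At the 2-cell stage the count of 4 between genotypes became 2 with sum scaling, 1 with library weights (Yap1) and 0 with the 4 libraries compared alone, where limma called 0 of all genes, and it ran from 2 to 7 when each library was left out. The interaction count of 2 became 1 (Yap1) with sum scaling, quantile normalization, library weights or the crossed replicate block, 3 with median-ratio scaling, and ran from 0 to 3 when each library was left out. The count past 3-fold at the 2-cell stage, 2, became 4 at a 2-fold threshold, and 1 (Yap1) when each library had to pass or with sum scaling, and ran from 1 to 3 when each library was left out. With median-ratio scaling it was 3, all upward (Tead4, Dppa2 and Dppa4), without Yap1. Leaving out a library left 1 in its group, assumed to vary like the other groups.

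With a replicate block the 2-cell genotype count was 3 (Nfyb lost, limma adjusted p = 0.094), the WT stage count 5 (Nfya gained, limma adjusted p = 0.045), and the cKO stage, zygote and interaction counts stayed at 7, 0 and 2. Deviations of same-numbered libraries correlated across genes by 0.50 between the zygote groups and by -0.24 between the 2-cell groups. With 2 pairs, the samples share only a number. With the numbers of the cKO 2-cell libraries crossed, 7237, 4605 and 1385 of all genes were called for the WT stage, the 2-cell genotype and the interaction, against 7021, 3162 and 1134 with the block as numbered.

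Directions turned in 16 alternatives for single members, and none of those was called. With median-ratio scaling the WT stage difference became -0.16 for Nfyc, -0.068 for Yap1 and -0.21 for Ctcf, and Ctcf became 0.14 for the cKO stage, 0.14 at 2-cell and 0.35 for the interaction. With quantile normalization Ctcf became -0.27 for the WT stage and 0.16 for the interaction. With each library left out in turn, Ctcf ran from -0.14 to 0.38 for the WT stage, -0.58 to 0.53 for the cKO stage (0.053 without the second cKO zygote library), -0.44 to 0.077 in zygotes, -0.88 to 0.23 at 2-cell and -0.69 to 0.42 for the interaction (0.12 without the first WT zygote library), and Nfya ran from -0.18 to 0.12 in zygotes. The other results were 632 unchanged in direction and call, 49 with a lost call and 15 with a gained one. The unknown depth and the floor of 1 FPKM limit what can be said of Tead4, Dux and other low genes. The causes of these changes were not tested.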

Other observations

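Among all genes of each library ranked by FPKM, Dppa4 stood at ranks 6328 and 7014 in WT zygotes, 424 and 346 in WT 2-cell embryos and 150 and 286 in cKO 2-cell embryos. Dppa2 stood at 456 and 486 in WT and at 111 and 215 in cKO 2-cell embryos. A rank does not change with the scaling of a library.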
